A study of Homo sapiens with 10 samples.

Results

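The MCM helicase genes described here are MCM2, MCM3, MCM4, MCM5, MCM6, MCM7 and MCM10, 7 of the 20033 protein-coding genes in the annotation used. They were chosen by name, and the listed peak summits inside each gene or within 1 kb of its ends (hg38) were collected from 6 ChIP-seq peak lists. This gave 8 of 34035 summits with RB1 siRNA, 5 of 20860 with the control siRNA, 9 of 92479 with HA-RB(245-255), 12 of 74457 with EV(245-255), 30 of 243310 with HA-RBN and 28 of 156785 with EV(RBN).

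ChIP-seq measures where a protein sits on DNA, and all libraries came from 22RV1, an established human prostate cancer cell line. Every group held 1 library, and each was transfected or infected per the labels. The groups were an siRNA against RB1 set against a control siRNA, a plasmid for an HA-tagged (epitope-marked) RB fragment of residues 245 to 255 set against its empty vector, and a plasmid for an HA-tagged insert named RBN set against another empty vector. The antibody is not named in the labels. The title of the series speaks of TRIM24, a protein that reads chromatin marks and tunes transcription. One label field places HA-RB(245-255) among controls while its title names the construct, and the title was used. The design text starts that fragment 1 residue earlier than the sample titles do. The 4 IgG (mock immunoprecipitation) libraries were not analysed here. Single libraries leave no replicates, so conditions could not be tested against each other, and every 95% interval below covers counting error only. Sequenced fragments without molecular identifiers are not independent molecules, so true errors are wider. How far RB1 was depleted and how much of each construct was made cannot be read from these lists.

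The proteins MCM2 to MCM7 form the ring that is loaded onto DNA at replication origins and later unwinds it as the core of the replicative helicase. MCM4, MCM6 and MCM7 were the first subunits found to unwind DNA together, MCM2, MCM3 and MCM5 complete the ring, and MCM10, which is not a ring subunit, helps to start the loaded helicase. Transcription of MCM genes rises as cells enter the cycle, driven by E2F factors that the RB protein restrains, and MCM levels mark dividing cells, prostate cancer cells included.

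Promoter sequences show what lies under the summits. RefSeq promoters (GRCh38.p14, 250 bases before to 50 after a start) were available for 5 of the 7 genes, and MCM4 and MCM5 have no entry in the table. The sequences run 5′ to 3′ along the gene, and capitals mark matches on either strand to the E2F letters TTTCCCGC, TTTGGCGC or TTTCGCGC.
MCM2 (chr3:127598161-127598460, plus strand): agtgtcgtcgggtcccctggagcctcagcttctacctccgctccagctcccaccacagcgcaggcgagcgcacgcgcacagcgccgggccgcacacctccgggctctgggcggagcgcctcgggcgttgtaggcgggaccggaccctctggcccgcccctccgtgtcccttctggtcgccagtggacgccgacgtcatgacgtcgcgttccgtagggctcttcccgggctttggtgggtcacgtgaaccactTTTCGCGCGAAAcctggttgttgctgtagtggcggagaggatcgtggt
MCM3 (chr6:52284693-52284992, minus strand): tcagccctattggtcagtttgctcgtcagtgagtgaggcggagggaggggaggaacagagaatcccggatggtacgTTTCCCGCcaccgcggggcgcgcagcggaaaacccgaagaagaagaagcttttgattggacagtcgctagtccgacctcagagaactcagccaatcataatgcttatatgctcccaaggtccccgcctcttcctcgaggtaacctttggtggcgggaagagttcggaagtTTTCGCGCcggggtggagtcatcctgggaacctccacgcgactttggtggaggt
MCM6 (chr2:135876394-135876693, minus strand): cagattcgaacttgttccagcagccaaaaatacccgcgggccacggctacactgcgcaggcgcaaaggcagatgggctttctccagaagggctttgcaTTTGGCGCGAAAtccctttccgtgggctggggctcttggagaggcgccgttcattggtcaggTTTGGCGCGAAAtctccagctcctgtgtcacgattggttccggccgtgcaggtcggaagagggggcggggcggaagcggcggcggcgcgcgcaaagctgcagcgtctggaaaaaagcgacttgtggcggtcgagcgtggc
MCM7 (chr7:100101348-100101647, minus strand): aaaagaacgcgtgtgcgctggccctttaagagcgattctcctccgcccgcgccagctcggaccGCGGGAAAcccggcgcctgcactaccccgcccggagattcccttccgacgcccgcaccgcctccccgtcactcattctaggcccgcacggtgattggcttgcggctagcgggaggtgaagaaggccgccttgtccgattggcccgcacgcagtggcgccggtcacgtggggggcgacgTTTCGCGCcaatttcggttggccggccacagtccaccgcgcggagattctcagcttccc
MCM10 (chr10:13161308-13161607, plus strand): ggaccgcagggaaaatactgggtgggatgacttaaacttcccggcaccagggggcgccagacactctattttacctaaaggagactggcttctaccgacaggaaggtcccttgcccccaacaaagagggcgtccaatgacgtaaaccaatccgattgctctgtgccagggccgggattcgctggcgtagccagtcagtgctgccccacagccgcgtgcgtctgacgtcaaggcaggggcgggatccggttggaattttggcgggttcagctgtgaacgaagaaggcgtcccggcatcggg

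Matches to the E2F letters were found in 4 of the 5 printed promoters, and in 4 of 7 when the promoters of the other MCM7 starts, which hold none, are counted, while 3.42% of 21986 promoters of protein-coding genes in the table hold any of them. MCM6 had the densest set, with TTTGGCGC starting 152 and 90 bases before the start (positions −152 and −90). Each of these overlaps TTTCGCGC on the opposite strand, at −148 and −86. MCM2 had TTTCGCGC on both strands in a single overlapping block at 2 and 6 bases past the start. MCM3 had TTTCCCGC at −174 and TTTCGCGC at −4, and MCM7 had TTTCCCGC on the opposite strand at −187 and TTTCGCGC at −9. MCM10 holds none of the 3 letter strings in this window.

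Matches to letters of other factors were counted as well. CCAAT, the box bound by NF-Y, was present on 1 or both strands in the promoters of MCM3, MCM6, MCM7 and MCM10 and in 34.7% of all promoters. GGGCGG, the GC box, was present in those of MCM2, MCM6, MCM7 and MCM10 and in 56.3% of all. TTCGAA, a cell cycle (CHR) element, was found in MCM6 and in 1.54% of all, and the other CHR letters, TTTGAA, in none of the 5 against 12.4% of all. CCGGAAGT, an ETS site, and AGGTCA, part of a nuclear receptor element, were in none of the 5 windows, against 5.33% and 11.8% of all promoters. GC content was 68.3% for MCM2, 57.3% for MCM3, 62.3% for MCM6, 67.7% for MCM7 and 59.7% for MCM10, around the 62.3% median of all promoters. These matches are letters in a window and do not show which factor was bound.

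Summits lay close to the gene starts. MCM7 has 3 starts in the promoter table, and the strongest summits gathered at its outermost start, on which all its distances are measured. For MCM4 and MCM5, whose start is not in the table, both gene ends were searched, and the strongest summit lay by the lower end in each library. Within 1 kb of the start all 7 members had a summit with RB1 siRNA, 5 with the control siRNA, 6 with HA-RB(245-255), 7 with EV(245-255), 7 with HA-RBN and 7 with EV(RBN). Over all genes the share was 34.9% with RB1 siRNA, 29.1% with the control siRNA, 45.5% with HA-RB(245-255), 45.1% with EV(245-255), 71.3% with HA-RBN and 56.7% with EV(RBN).

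The positions repeated almost to the base in several libraries. The MCM2 summit was at chromosome 3 position 127598370 with RB1 siRNA and again at 127598370 with the control siRNA. It was at 127598372 with HA-RB(245-255), 127598299 with EV(245-255) and 127598375 with HA-RBN, all 36 to 112 bases before the start at 127598411. In EV(RBN) the strongest summit, of 5 fragments, lay 555 bases before it. MCM6, on chromosome 2, had its summit at 135876566 with RB1 siRNA, 135876563 with EV(245-255) and 135876567 with HA-RBN, 120 to 124 bases before its start and between the blocks of E2F letters printed above. With EV(RBN) it was at 135876646. For MCM5, on chromosome 22, the summits spanned 141 bases over the 6 libraries, from 35399910 in HA-RBN to 35400051 in EV(245-255), and the lower gene end is at 35400140. MCM4, on chromosome 8, had summits at 47960819 with RB1 siRNA, 47960820 with the control siRNA and 47960819 with EV(245-255), and in the RBN pair at 47960675 with HA-RBN and 47960684 with EV(RBN). MCM3, on chromosome 6, had its summit at 52284798 with both RB1 siRNA and HA-RBN, 56 bases before the start. MCM10, on chromosome 10, spanned 322 bases, with the same position, 13161504, in the control siRNA and EV(245-255) lists. MCM7, on chromosome 7, spanned 322 bases as well, and its summits moved from 112 bases before the start in EV(245-255) to 210 bases past it in EV(RBN). Over all gene starts shared by a pair, summits lay a median of 51 bp apart in the siRNA pair, 38 bp in the 245-255 pair and 103 bp in the RBN pair.

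**Figure D1:**
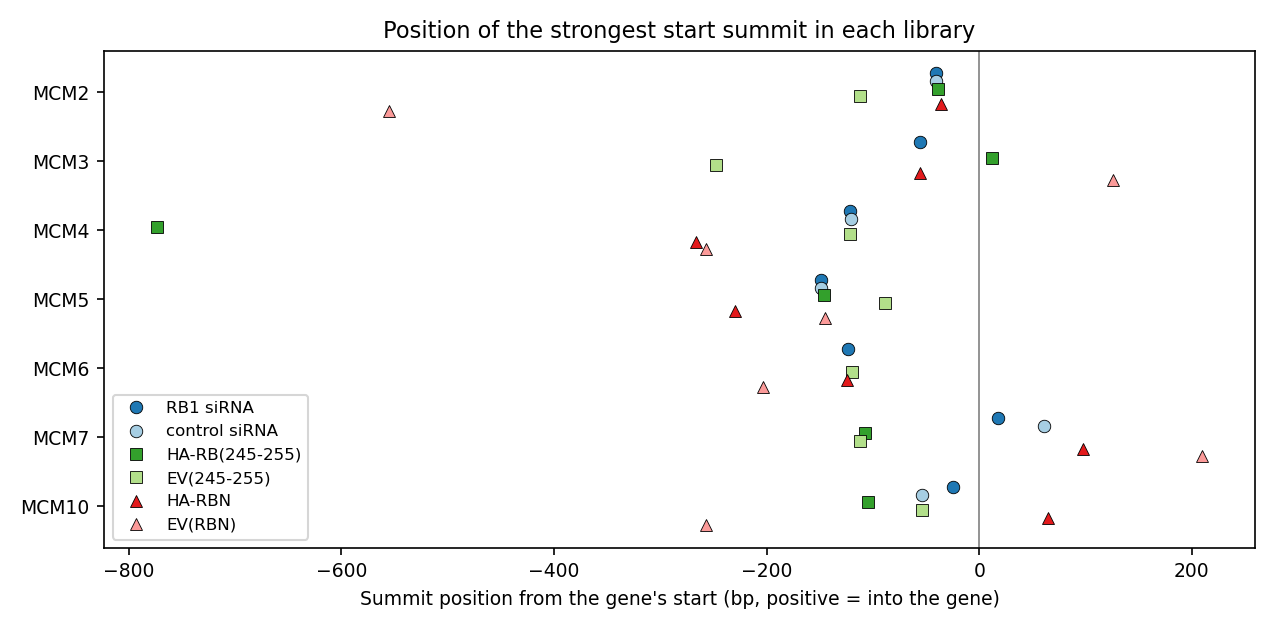
Position of the strongest summit within 1 kb of each MCM gene's start, in bp (positive into the gene; for MCM4 and MCM5 from the lower gene end), with 1 point per library. The points of a gene lie mostly within 300 bases of the start, apart from the EV(RBN) summit of MCM2 at −555 and the HA-RB(245-255) summit of MCM4 at −774.

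Other genes start beside some members, so a summit there cannot be assigned to a single gene. A start of TPRA1 lies 180 bp from that of MCM2, a start of AP4M1 lies 40 bp from a start of MCM7, and an end of PRKDC, the DNA repair kinase, lies 805 bp from the lower end of MCM4.

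Start summits were missing for MCM3 and MCM6 with the control siRNA and for MCM6 with HA-RB(245-255). The lists with an IgG partner are made of long intervals (median length 51167 bp with RB1 siRNA, 83581 bp with the control siRNA, 18225 bp with HA-RB(245-255) and 22317 bp with EV(245-255)), and each interval lists 1 summit. In the control siRNA list the MCM3 start lay inside an interval whose only listed summit, of 104 fragments, was 219600 bp away, while the MCM6 start lay in a stretch of 9769 bp without an interval. With HA-RB(245-255) the MCM6 start lay in a gap of 1051 bp, and the MCM4 lower end in a gap of 1090 bp with a summit of 8 fragments before it and of 4 fragments after it. Gaps in that list had a median of 1164 bp. Since an interval lists only 1 summit, a missing summit does not show that binding was absent.

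The height of a summit was expressed as DNA fragments stacked there, computed from the authors' fold enrichment and p-value, and as enrichment, the fragments divided by the library's background. That background, an index of depth, was 0.539 fragments per base with RB1 siRNA, 0.413 with the control siRNA, 0.250 with HA-RB(245-255), 0.187 with EV(245-255), 0.634 with HA-RBN and 0.367 with EV(RBN). Both lists of the RBN pair stood apart from the lists with an IgG partner. At 2725 genes with a start summit in all 6 lists the median enrichment was 34.7 with HA-RBN and 21.8 with EV(RBN), against 81.7, 87.2, 80.03 and 112 with RB1 siRNA, the control siRNA, HA-RB(245-255) and EV(245-255).

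MCM7 was the strongest member in 5 of the 6 libraries. Its start summit held 234 fragments with RB1 siRNA and 259 with the control siRNA, 58 with HA-RB(245-255) and 57 with EV(245-255), and 173 with HA-RBN and 25 with EV(RBN). As enrichment these were 434, 627, 232, 304, 273 and 68.2 in the same order. It ranked 44th of 6200 distinct gene start summits with RB1 siRNA, 28th of 5116 with the control siRNA and 16th of 12935 with HA-RBN. In EV(245-255) MCM5 stood first with 60 fragments, which counting error does not separate from the 57 of MCM7.

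MCM4, the partner of MCM6 and MCM7 in the unwinding core, came next in 4 libraries. It had 131 fragments with RB1 siRNA and 127 with the control siRNA, 8 with HA-RB(245-255) and 42 with EV(245-255), and 59 with HA-RBN and 14 with EV(RBN). The 8 fragments come from the summit 774 bases away, beside the gap described above. MCM6, the remaining core subunit, was among the weakest, with 46 fragments with RB1 siRNA, 16 with EV(245-255), 17 with HA-RBN and 3 with EV(RBN), and no start summit with the control siRNA or HA-RB(245-255). With RB1 siRNA MCM7 had 434-fold enrichment against 85.4-fold for MCM6.

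MCM2, MCM3 and MCM5 lay between these levels. MCM2, the subunit that also binds histones, had 107 fragments with RB1 siRNA and 77 with the control siRNA, 33 with HA-RB(245-255) and 35 with EV(245-255), and 36 with HA-RBN and 5 with EV(RBN). MCM3 had 101 with RB1 siRNA, 20 with HA-RB(245-255) and 20 with EV(245-255), and 42 with HA-RBN and 5 with EV(RBN). MCM5 had 88 with RB1 siRNA and 79 with the control siRNA, 50 with HA-RB(245-255) and 60 with EV(245-255), and 39 with HA-RBN and 7 with EV(RBN). Between neighbours among MCM4, MCM2, MCM3 and MCM5 in the RB1 siRNA order, the interval of the ratio of fragments included 1. Counting therefore does not settle the order of neighbours. The outer members of this row were apart, since the 95% intervals of MCM4 (110 to 155 fragments) and MCM5 (70.6 to 108) did not overlap. MCM7 lay above its neighbour beyond counting error with RB1 siRNA, with the control siRNA and in HA-RBN.

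MCM10, the factor outside the ring, was the last or next to last of the members listed in each library. It had 45 fragments with RB1 siRNA and 39 with the control siRNA (the lowest of 3 numbers that fit its deposited values), 14 with HA-RB(245-255) and 19 with EV(245-255), and 19 with HA-RBN and 3 with EV(RBN). With RB1 siRNA, MCM5 lay above MCM6 and MCM10 beyond counting error, and MCM6 and MCM10 did not differ beyond it. Against all gene start summits MCM10 was not low: it lay above 71.3% of them with RB1 siRNA, 69.7% with the control siRNA, 58.2% with HA-RB(245-255), 69.2% with EV(245-255) and 74.2% with HA-RBN, but above 9.9% with EV(RBN).

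Relative to all gene starts with a summit, the members were high in 5 libraries. Their median enrichment was 187 against 50.1 over all gene start summits with RB1 siRNA, 191 against 58.1 with the control siRNA, 106 against 44.02 with HA-RB(245-255), 187 against 58.7 with EV(245-255) and 61.5 against 15.8 with HA-RBN. In EV(RBN) the median of the members, 13.6, was that of all gene starts, also 13.6. A summit of at least 20 fragments was found at 7 members with RB1 siRNA, 5 with the control siRNA, 4 with HA-RB(245-255), 5 with EV(245-255), 5 with HA-RBN and 1 with EV(RBN), the last being MCM7. Over all genes such a summit was found at 22.5% with RB1 siRNA, 17.6% with the control siRNA, 13.2% with HA-RB(245-255), 13.7% with EV(245-255), 18.5% with HA-RBN and 2.85% with EV(RBN).

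**Figure D2:**
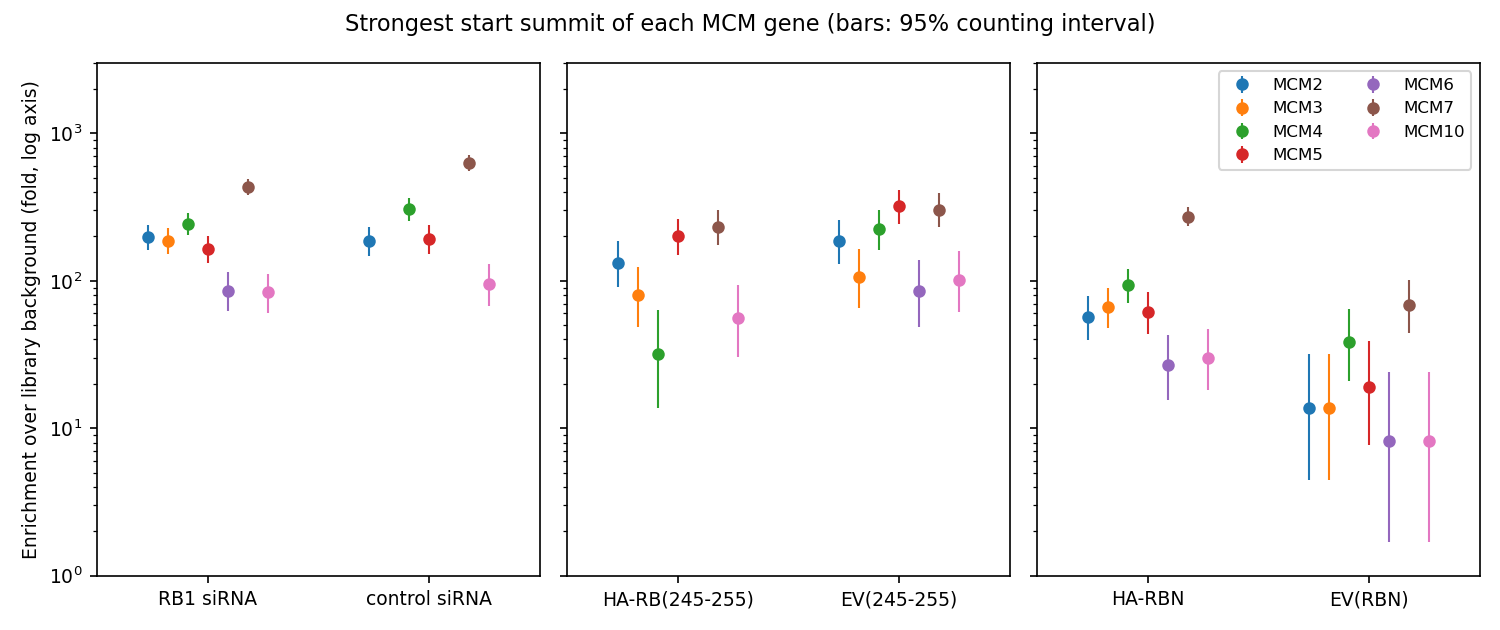
Enrichment of the strongest start summit of each MCM gene over the background of its library (fold, log axis), with exact Poisson 95% intervals that cover counting error only, in 3 panels of a condition and its control. MCM7 is highest or close to highest in every library, and every member is lower in EV(RBN), where they span 8.18 to 68.2, than in HA-RBN.

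With HA-RBN the authors' own fold enrichment orders the members' summits differently from the fragments, since it divides by a local background. With RB1 siRNA both gave the same order. The MCM7 summit had a deposited fold enrichment of 9.26 with HA-RBN and 6.21 with EV(RBN), with −log10 q of 101 and 10.8. The local background there was 17.8 fragments with HA-RBN and 3.19 with EV(RBN). MCM3, with 42 fragments in HA-RBN but a local background of 2.75, had the higher deposited fold of 11.5. At −log10 q of at least 5 all 7 members kept a start summit with HA-RBN, 2 with EV(RBN) (MCM4 and MCM7), 1 with RB1 siRNA (MCM7), 1 with the control siRNA (MCM7), and 0 with HA-RB(245-255) or EV(245-255). Over all genes 30.9% did with HA-RBN and 8.55% with EV(RBN), against 0.235% with RB1 siRNA, 0.449% with the control siRNA, 0.374% with HA-RB(245-255) and 0.22% with EV(245-255).

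The first comparison asks whether knockdown of RB1 changes occupancy at the MCM genes. No MCM gene with a shared start summit moved by more than 1 log2 unit with RB1 siRNA. The relative log2 ratio used here is that of the enrichments, RB1 siRNA over control siRNA, minus its median of −0.12 over 3224 shared gene start summits (summits within 500 bp of each other, with at least 20 fragments over both libraries). With the lowest fragment numbers that fit, MCM7 was the member with an interval below 0. It stood at −0.41 (95% interval −0.67 to −0.15), and 11.4% of shared starts were lower. MCM4 stood at −0.22 (−0.58 to 0.15), MCM5 at −0.11 (−0.56 to 0.35), MCM10 at −0.06 (−0.71 to 0.60) and MCM2 at 0.21 (−0.22 to 0.65). Of these 5 members 1 lay above the median of all shared starts and 4 below, with a median of −0.11 and 0 of 5 past 1 log2 unit in either direction. Of all 3716 genes with such a summit, 1.4% lay past 1 upwards and 0.727% downwards. MCM3 and MCM6 had a start summit with RB1 siRNA, of 101 and 46 fragments, and none listed with the control siRNA, so they give no ratio. With the highest fragment numbers that fit, 1 member lay past 1, since the MCM10 value of the control siRNA library is not unique. The members' median was then 0.25 in place of −0.11, as the median subtracted also changes with the fit. The direction of these small shifts, that of MCM7 included, therefore depends on which fit is kept.

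The second comparison asks the same of the short RB fragment, and here too no shared member moved past 1 log2 unit. Uncentred, HA-RB(245-255) enrichments lay below those of EV(245-255) at all 5 shared members, as they did at the median shared start, where the log2 ratio was −0.48 over 3564 summits. Relative to that median, MCM10 stood at −0.38 (−1.48 to 0.70), with 14 fragments with HA-RB(245-255) against 19 with EV(245-255). MCM5 stood at −0.20 (−0.77 to 0.37), MCM2 at −0.02 (−0.75 to 0.71), MCM3 at 0.06 (−0.91 to 1.03) and MCM7 at 0.09 (−0.46 to 0.64). The members' median was −0.02, with 2 above and 3 below and 0 of 5 past 1, and each interval held 0. Of 4135 genes 1.72% lay past 1 upwards and 2.18% downwards. MCM4 and MCM6 gave no ratio because of the gaps described above. If the MCM4 summits up to 1 kb apart are compared, 1 member lies past 1 log2 unit.

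The third comparison sets the RBN plasmid against its vector. All 6 MCM genes with a shared start summit stood higher, relative to other gene starts, with HA-RBN than with EV(RBN). The members' median relative log2 ratio was 1.1, with 6 above and 0 below and 4 of 6 past 1 upwards. Of those past 1, MCM6 and MCM10 could enter only with such a value, because of the fragment limit described below. The same limit let MCM3, MCM6 and MCM10 enter only above 0, so their direction was fixed in advance. The direction of MCM4, MCM5 and MCM7 was not. Of 4866 genes with such a summit, 4.6% lay past 1 upwards and 2.88% downwards, and the median log2 ratio subtracted was 0.69 over 4137 summits.

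MCM3 led at 1.59 (0.26 to 3.29), with 42 fragments with HA-RBN against 5 with EV(RBN), and 99.5% of shared starts were lower. MCM7 followed at 1.31 (0.70 to 1.98), with 98.6% lower. Those were the members whose intervals lay above 0. MCM10 had 19 fragments against 3, at 1.18 (−0.58 to 3.58), and MCM6 had 17 against 3, at 1.02 (−0.77 to 3.44). A shared summit needed at least 20 fragments over both libraries. With 3 in EV(RBN), a gene could therefore enter only with 17 or more with HA-RBN, which already lies past 1. The filter thus fixed that MCM6 and MCM10 lie past 1. With 5 in EV(RBN), as for MCM3, a gene could enter only with a value above 0. The sign of MCM3 was therefore fixed as well, though not its size. MCM5 lay on the limit at 1.00 (−0.18 to 2.41), and MCM4 had 59 against 14, at 0.60 (−0.26 to 1.55). MCM2 gave no ratio at 500 bp, since its HA-RBN summit of 36 fragments and its EV(RBN) summit of 5 fragments were 519 bp apart. The low counts in EV(RBN) make these intervals wide, and at least 40 fragments over both libraries left 4 members, of which 2 lay past 1.

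**Figure D3:**
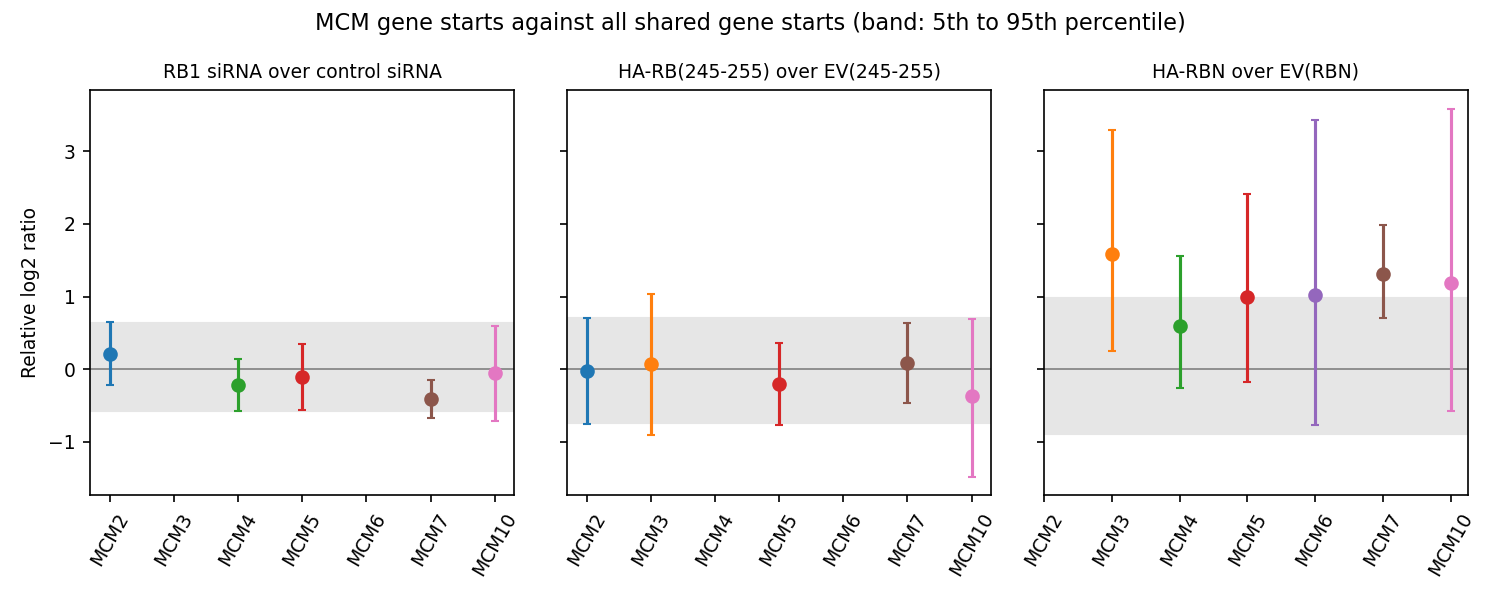
Relative log2 ratio of fragments at MCM gene starts, as condition over control minus the median of all shared gene starts, with 95% counting intervals and a grey band from the 5th to the 95th percentile of all shared starts. In the RBN pair all 6 shared members lie above 0, while in the siRNA and 245-255 pairs they lie between −0.41 and 0.21. The fragment limit let MCM3, MCM6 and MCM10 enter the RBN pair only above 0. Genes without a point had no shared start summit.

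The higher values with HA-RBN were measured against the single EV(RBN) library. Setting HA-RBN against the control siRNA library in its place, a comparison across experiments that was added after the data were seen, gave a members' median of −0.34 over 5 members, with 1 above and 4 below. Against EV(245-255) the median was 0.09 over 7 members, with 5 above and 1 below, from −0.62 for MCM5 to 1.60 for MCM7. EV(RBN) itself set against the control siRNA gave −1.24 over 4 members, with 0 above and 4 below, and against EV(245-255) it gave −0.83 over 6, with 1 above and 5 below. Relative to other gene starts, all members but MCM7 were lower in EV(RBN) than in either of the other control libraries wherever a ratio could be had, and MCM7 was higher than in EV(245-255), at 0.31. The median start summit of all genes held 5 fragments in EV(RBN), against 24 with the control siRNA and 11 with EV(245-255), and the part of this in the result was not tested.

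The 5 members with a start summit in all 6 lists can be compared across every library. On a log2 scale, with the median of the 2408 distinct sites listed in all libraries set to 0, the median of MCM2, MCM4, MCM5, MCM7 and MCM10 was 1.28 with RB1 siRNA and 1.13 with the control siRNA, 0.72 with HA-RB(245-255) and 1.00 with EV(245-255), and 0.83 with HA-RBN and −0.19 with EV(RBN). MCM7 stayed above that median by 1.44 to 2.98 in all 6 libraries. MCM2 stood at 0.71 with HA-RBN and −0.68 with EV(RBN), and MCM10 at −0.21 with HA-RBN and −1.42 with EV(RBN). MCM5 stood at 0.83 with HA-RBN and −0.19 with EV(RBN). MCM4 and MCM7 remained above 0 in EV(RBN), MCM4 at 1.42 with HA-RBN and 0.81 with EV(RBN) and MCM7 at 2.98 with HA-RBN and 1.64 with EV(RBN).

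**Figure D4:**
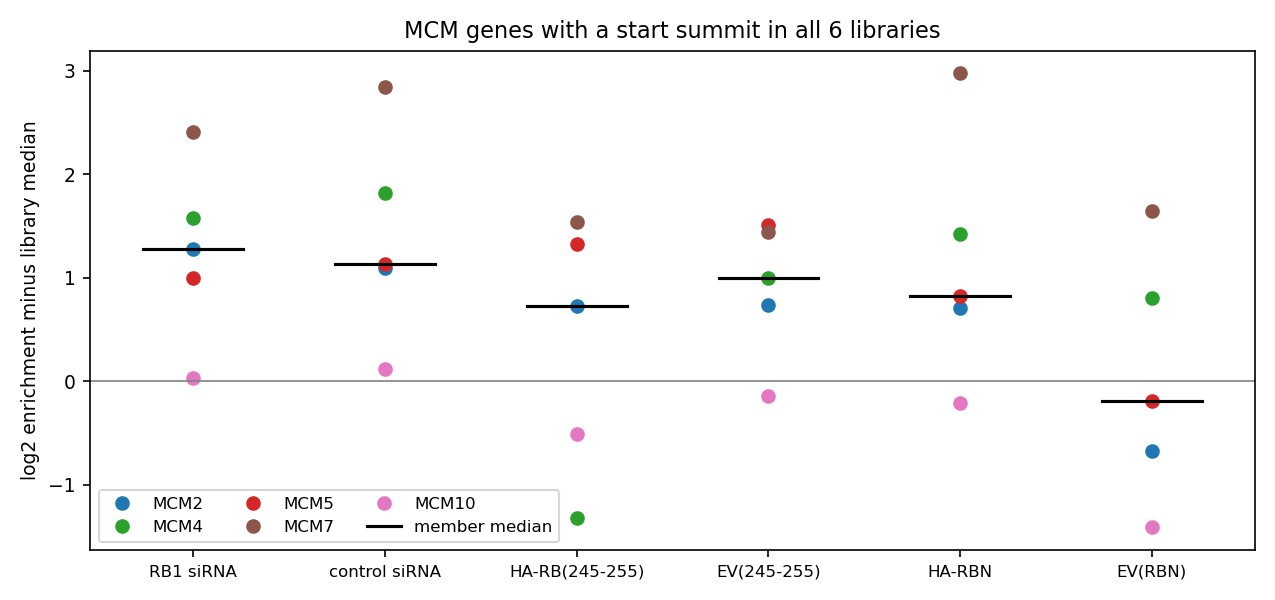
Log2 enrichment of the 5 MCM genes with a start summit in all 6 libraries, minus the library's median over all sites listed in every library, with the members' median as a black bar. The bar lies between 0.72 and 1.28 in 5 libraries and at −0.19 in EV(RBN).

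Genes with the most similar profile over the 6 libraries were sought by the root mean square difference in centred log2 enrichment from the members' median, among 2725 genes. The closest were SH3YL1 and ACP1, which share 1 site, at 0.19, then GPBP1 at 0.20, OSBPL11 at 0.21 and B4GALT1 at 0.21. MCM2 itself lay at 0.23 and MCM5 at 0.34, while MCM4, MCM10 and MCM7 were farther, at 1.01, 1.16 and 1.48. The profile of MCM2 was the nearest of the 5 to their median, with 7 genes closer. As these 5 genes make up that median, the closeness of MCM2 and MCM5 is partly built in.

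Summits away from the starts were mostly low. They were few in the lists of long intervals but made up most member summits in the RBN pair. There were 1 with RB1 siRNA, 0 with the control siRNA, 2 with HA-RB(245-255) and 4 with EV(245-255), of at most 7 fragments by the lowest fit. Several fragment numbers fitted at each of these summits, so that value is not an upper limit. The RBN pair, whose intervals are short (median 522 bp with HA-RBN and 450 bp with EV(RBN)), listed 22 of 30 there with HA-RBN and 20 of 28 with EV(RBN), with a median of 5 and 2.5 fragments. MCM5, with the longest gene body of the set at 54892 bp, held 9 of the HA-RBN ones, of 4 to 6 fragments. The highest in the RBN pair by fragments, with 18, lay in MCM7 at position 100093598 with HA-RBN. The local background at that position was 6.33 fragments. Its deposited fold enrichment was 2.59, below the 3.67 of an HA-RBN summit of 5 fragments inside MCM3. That position is inside the hairpin of MIR25 (100093560 to 100093643, minus strand), a microRNA that MCM7 hosts together with MIR93 and MIR106B. EV(RBN) had a summit of 8 fragments nearby, at 100093459, and the other 4 lists had none away from the MCM7 start. With RB1 siRNA, the control siRNA and EV(245-255), 1 interval covered both the MCM7 start and this hairpin. As an interval lists 1 summit, none could be listed at the hairpin there, so these lists do not show that binding was absent. The mature MIR25 sequences are shown to identify the locus, with the seed in capitals.
hsa-miR-25-3p: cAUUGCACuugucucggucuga
hsa-miR-25-5p: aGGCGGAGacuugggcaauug

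Genes that load, activate and accompany the helicase were examined as a list of 27. A start summit was listed for 17 of them with RB1 siRNA and 16 with the control siRNA, 25 with HA-RB(245-255) and 21 with EV(245-255), and 27 with HA-RBN and 24 with EV(RBN). The shares of all genes with a start summit were 34.9%, 29.1%, 45.5%, 45.1%, 71.3% and 56.7% in the same order. The median enrichment of the listed partners was 96.5, 126, 68.03, 80.04, 29.96 and 17.7 in that order. It was above that of all gene starts in each library and, apart from EV(RBN), below that of the MCM genes. GMNN, the inhibitor of origin licensing, was the strongest with both siRNAs, with 130 fragments with RB1 siRNA and 97 with the control siRNA. DBF4, the activator of the CDC7 kinase, led the 245-255 pair with 56 with HA-RB(245-255) and 52 with EV(245-255). CDC45, which joins the ring to form the active helicase, led the RBN pair with 74 with HA-RBN and 43 with EV(RBN).

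In the siRNA pair these partners had 5 above and 5 below the median of shared starts, with a median of 0.04 and 0 of 10 past 1 log2 unit. CLSPN, a checkpoint mediator at the fork, had 69 fragments with RB1 siRNA against 82 with the control siRNA, at −0.51 (−1.0 to −0.03). TICRR, an origin firing factor, stood at 0.39 (−0.26 to 1.07), ORC1 of the origin recognition complex at −0.29 (−0.87 to 0.29) and GINS2 of the active helicase at 0.20 (−0.32 to 0.73). In the 245-255 pair 13 of 18 lay above and 4 below, with a median of 0.18. The widest of these were MCM8 at −1.09 (−2.41 to 0.11), the fork protein WDHD1 at 0.87 (−0.48 to 2.33), ORC2 at 0.69 (−0.49 to 1.93) and GMNN at 0.67 (−0.04 to 1.39).

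In the RBN pair the partners lay on both sides of the median of shared starts. There were 6 above and 9 below, with a median of −0.23, and 2 of 15 past 1 upwards, against the 4.6% of all genes. Those were GMNN, with 58 fragments with HA-RBN against 7 with EV(RBN), at 1.57 (0.44 to 2.95), and MCMDC2, a relative of the ring subunits, at 1.17 (−0.37 to 3.15). CDC45 stood at −0.69 (−1.26 to −0.12) and TICRR at −0.89 (−2.14 to 0.42). Whether the MCM genes and their partners differ was not tested, since each condition has a single library.

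The relatives MCM8 and MCM9, which act together in repair by homologous recombination and were named here for their family, had start summits in 5 libraries each. MCM8 had none listed with RB1 siRNA and 20 fragments with the control siRNA, 9 with HA-RB(245-255) and 20 with EV(245-255), and 18 with HA-RBN and 5 with EV(RBN). MCM9 had 22 with RB1 siRNA and none listed with the control siRNA, 12 with HA-RB(245-255) and 8 with EV(245-255), and 17 with HA-RBN and 4 with EV(RBN). Some of these values matched ring genes of the same library, as MCM8 did MCM3 with 20 in EV(245-255) and MCM9 did MCM6 with 17 in HA-RBN.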

How the data were processed

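Peak lists of 6 libraries were used as deposited, 1 list per library. The submitters' processing notes list MACS2 2.1.0, Bowtie 1.1.2, Trimmomatic 0.33, bcl2fastq 2.17 and the hg38 build but not what each did. Caller settings, control libraries and sequencing totals are not stated there. The files lack a header and were read from their values as narrowPeak without the name column. Each list was assigned to the sample whose title it carries. The authors' fold enrichment is a ratio of summit signal to local background. Peaks also carry the authors' −log10 p-value, the authors' −log10 q-value and a deposited score of 10 times the −log10 p-value, which was not used, beside the summit offset. The smallest deposited −log10 p-value of a list was 1.30, so weak peaks are included. The lists with and without an IgG partner were scored differently.

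Fragments at a summit were solved from the authors' fold enrichment, taken as pileup plus 1 over background plus 1, and the p-value, taken as a Poisson tail. The lowest whole number that fitted was kept. A single number fitted at 41.4% of summits with RB1 siRNA, 43.5% with the control siRNA, 35.5% with HA-RB(245-255) and 29.0% with EV(245-255). With HA-RBN and EV(RBN) the shares were 98.8% and 97.2%. Values over all genes in the lists with an IgG partner therefore rest partly on the lowest of several fits. In the lists with an IgG partner 1 fragment was worth 0.0176, 0.0166, 0.0512 and 0.0434 units of scaled pileup (RB1 siRNA, control siRNA, HA-RB(245-255), EV(245-255)). The method was tested on simulated peaks. Summits without a solution numbered 20 in HA-RBN and 6 in EV(RBN), none at a member. Background was the lowest frequent local background.

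Chromosomes 1 to 22, X and Y were used. RefSeq (GRCh38.p14) gave 20033 protein-coding genes and a start for 15842 of them. Both ends were searched for the rest, MCM4 and MCM5 included. Per gene the summit with most fragments within 1 kb was kept. Ratios carry exact binomial (Clopper-Pearson) intervals and single values exact Poisson intervals, both for counting error only. Software was Python 3.11.15, numpy 2.4.6, pandas 2.3.3, scipy 1.17.1 and matplotlib 3.10.9. Named genes were the members, genes starting within 1 kb of them, up to 4 partners per pair with the largest absolute ratio, and 5 genes of similar profile. MCM8 and MCM9 were added after their values were seen. The members, lists and tests were chosen with earlier results of these data known.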

Additional observations from a re-analysis of the deposited data

How the results depend on the processing

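Under other settings 58 recomputed values stayed within their limits and 8 moved. Asking for −log10 q of at least 5 left a start summit at 1 member with RB1 siRNA, 1 with the control siRNA, 0 with HA-RB(245-255), 0 with EV(245-255) and 2 with EV(RBN), where 0.235%, 0.449%, 0.374%, 0.22% and 8.55% of all genes had one in that order, while windows of 500 bp or 2 kb and either gene end changed no count by over 1.5 times. Members past 1 log2 unit numbered 1 in the siRNA pair with the highest fragment number that fitted, 1 in the 245-255 pair with summits matched within 1 kb, and 2 in the RBN pair with at least 40 fragments. The share of all genes past 1 is given for the main settings only, so these counts have no background beside them. The members' median in the RBN pair lay between 1.03 and 1.79 under the 7 settings of matching, fragment number and centring. In the siRNA pair it changed sign with the highest fragment number, to 0.25 from −0.11.

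Alternatives chosen after seeing the data moved the RBN pair further. Relative to shared starts with at least 40 fragments in the control siRNA library its median was 0.998. With the control siRNA in place of EV(RBN) it turned to −0.34, with 0 members past 1. With EV(245-255) in its place it was 0.0875, with 2 past 1. The share of all genes past 1 is not given for these replacements, so both counts stand without a background. The cause was not tested. Low counts limit the values of this pair, since EV(RBN) start summits of members other than MCM7 held at most 14 fragments. No paired analysis was possible because each group has 1 library and the labels give no replicate numbers.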
